A study of Mus musculus with 6 samples.

Results

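The genes described here copy DNA and make its building blocks. They are 52 genes of DNA replication and nucleotide synthesis, out of 26532 genes in the expression table. They were listed by name from their known roles, with earlier results of these data known. They form 9 groups that run from origin licensing to the copying of chromatin, and were found through the gene identifiers of the table. All 52 were present, and all passed the filter on low counts that left 13764 genes for testing. RNA sequencing was done on mouse embryonic fibroblasts (MEFs), cells taken from mouse embryos that can be driven towards bone-forming cells, to follow the role of ORAI2, a calcium channel of the cell membrane, in that differentiation. In the ORAI2 group (3 libraries) the cells carried an adenovirus expressing ORAI2 and have the genotype label ORAI2 Overexpression. In the GFP group (3 libraries) they carried an adenovirus expressing green fluorescent protein and have the genotype label WT. Both groups were thus exposed to virus, and both carry the treatment label osteogenic differentiation and the cell type label mesenchymal stem cells. The labels used here give no time point, virus dose or passage and do not say whether BMP9 was added. They also leave unsaid whether the 3 libraries of each group are separate cultures, so every p-value given reflects spread that may be technical.

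DNA replication is prepared in G1, when the origin recognition complex, CDC6 and CDT1 load rings of MCM2 to MCM7 onto DNA. This step is called licensing, and geminin blocks it later in the cycle. In S phase, kinases and firing factors turn the loaded rings into active CMG helicases (CDC45, MCM ring, GINS), and polymerases, the PCNA clamp and its loaders copy the opened strands. Ribonucleotide reductase, thymidylate synthase, thymidine kinase and dUTPase keep up the supply of deoxynucleotides, and many genes of all these steps are known targets of E2F factors.

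The library totals lay between 18526884 and 18844436 counts, and 19761 to 20038 genes had a count. Orai2 had 67882, 53034 and 45140 counts in ORAI2 libraries 1 to 3, against 994, 914 and 909 counts in the GFP libraries, a 59.2-fold higher level (log2 fold change 5.89, SE 0.13, edgeR adjusted p = 7.02e-11). In the counts, Orai2 thus matched the labels in all 6 libraries. Fibroblast markers were present but lower in ORAI2 cells: the summed level of the 9 listed, in CPM (counts scaled to a common library total), was 1247, 1363 and 1366 CPM in ORAI2 cells, against 2454, 2403 and 2375 CPM in GFP cells, and all 8 that passed the filter fell, while Thy1 had 1 to 3 counts per library. Col3a1, a fibrillar collagen, was 11.0-fold lower, log2 fold change -3.46, adjusted p = 2.25e-10. Col1a1 (2.59-fold lower, log2 fold change -1.38, adjusted p = 4.75e-10) and the receptor gene Pdgfrb (1.66-fold lower, log2 fold change -0.73, adjusted p = 3.08e-08) fell less, as did Col1a2, Vim, Pdgfra, S100a4 and Dcn, the last of which lost its call under DESeq2 (adjusted p = 0.085). Macrophage, endothelial and epithelial markers each summed to at most 55.6 CPM in any library. The macrophage markers, of which Ptprc had 0 to 2 counts per library, summed to 26.7, 31.9 and 35.9 CPM in ORAI2 cells, against 55.6, 51.9 and 55.1 CPM in GFP cells, with Mpeg1 (3.30-fold lower, log2 fold change -1.72, adjusted p = 3.08e-07) and Cd14 (1.56-fold lower, log2 fold change -0.64, adjusted p = 2.68e-04) lower. The 6 endothelial markers summed to 16.4, 16.3 and 17.5 CPM in ORAI2 cells, against 6.42, 6.47 and 8.88 CPM in GFP cells, with Vwf (2.76-fold higher, log2 fold change 1.46, adjusted p = 1.84e-05) and Kdr (2.01-fold higher, log2 fold change 1.00, adjusted p = 5.97e-05) higher, Pecam1 and Cdh5 at 0 to 7 counts and Emcn at 0 in all libraries. The 6 epithelial markers summed to 5.12, 4.81 and 4.21 CPM in ORAI2 cells, against 3.24, 3.74 and 2.80 CPM in GFP cells, with Grhl2 (4.68-fold higher, log2 fold change 2.23, adjusted p = 1.31e-04) higher and Epcam at 0 in all libraries. Grhl2 had 52, 50 and 30 counts in ORAI2 cells, against 9, 13 and 6 in GFP cells. Krt18 did not pass and leaned the other way (log2 fold change -0.23, edgeR adjusted p = 0.372), and Cdh1 had 2 to 5 counts per library. The markers given as higher or lower moved with the group, and their part in the replication gene results was not tested.

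The authors' TPM columns, a second measure scaled by transcript length and library total, did not follow the counts. Orai2 was at 1429.5, 1241 and 36.3 TPM in the ORAI2 columns, against 24.8, 24.9 and 38.2 TPM in the GFP columns. The ORAI2 column numbered 3 thus goes against its label in TPM but not in counts. In limma's test on log2(TPM + 1) over all 6 columns, 11 genes of the whole table were higher and 9 lower, and none of the 52 genes passed, with 3 higher and 2 lower at an unadjusted p under 0.05. With the columns numbered 1 and 2 alone, a choice made after seeing these values, 11 of the 52 genes were higher and 3 lower. The results below are from the counts.

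Most replication genes were modestly higher in ORAI2 cells. Of the 52, 31 rose, 6 fell (Mcm4, Mcm6, Pold2, Rfc2, Timeless and Dut) and 15 did not pass the test, which was edgeR's quasi-likelihood test with p-values adjusted over all tested genes and a threshold of 0.05. Over all 13764 tested genes, 42.9% passed, 20.8% as higher and 22.1% as lower, and beside that background 59.6% of the replication genes were higher and 11.5% lower. Because the list was made with earlier results of these data known, these shares are a description and not a test. The same shares of all tested genes are the background for the counts of every list below. Their median log2 fold change (ORAI2 over GFP) was 0.18, a 13.2% higher level, beside -0.0018 over all tested genes. In the TPM columns the median of the 52 was 0.05, with 35 values positive and 17 negative, against 40 positive and 12 negative in the counts, and with TPM columns 1 and 2 it was 0.13. The changes were small: 1 of the 52 genes, Rrm2, moved by 1.5-fold or more, against 11.2% of all tested genes. In the table, Rrm2 carries the gene identifier 20135, and those of the genes that fell are 17217 (Mcm4), 17219 (Mcm6), 18972 (Pold2), 19718 (Rfc2), 21853 (Timeless) and 110074 (Dut). For 40 of the 52 the ORAI2 and GFP libraries did not overlap, against 52.8% of all tested genes. The summed level of the 52 genes was 7142, 7167 and 6939 CPM in ORAI2 cells, against 6516, 6496 and 6487 CPM in GFP cells. All 3 ORAI2 sums lay above all 3 GFP sums, and ORAI2 library 3 was the lowest of its group. Within the ORAI2 group, library 3 also had the fewest Orai2 counts, but library 1, with the most, had a lower sum than library 2. A relation to the level of Orai2 was not tested. In such bulk RNA, a different share of cells in S phase and a different amount of RNA per cell cannot be told apart.

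**Figure D1:**
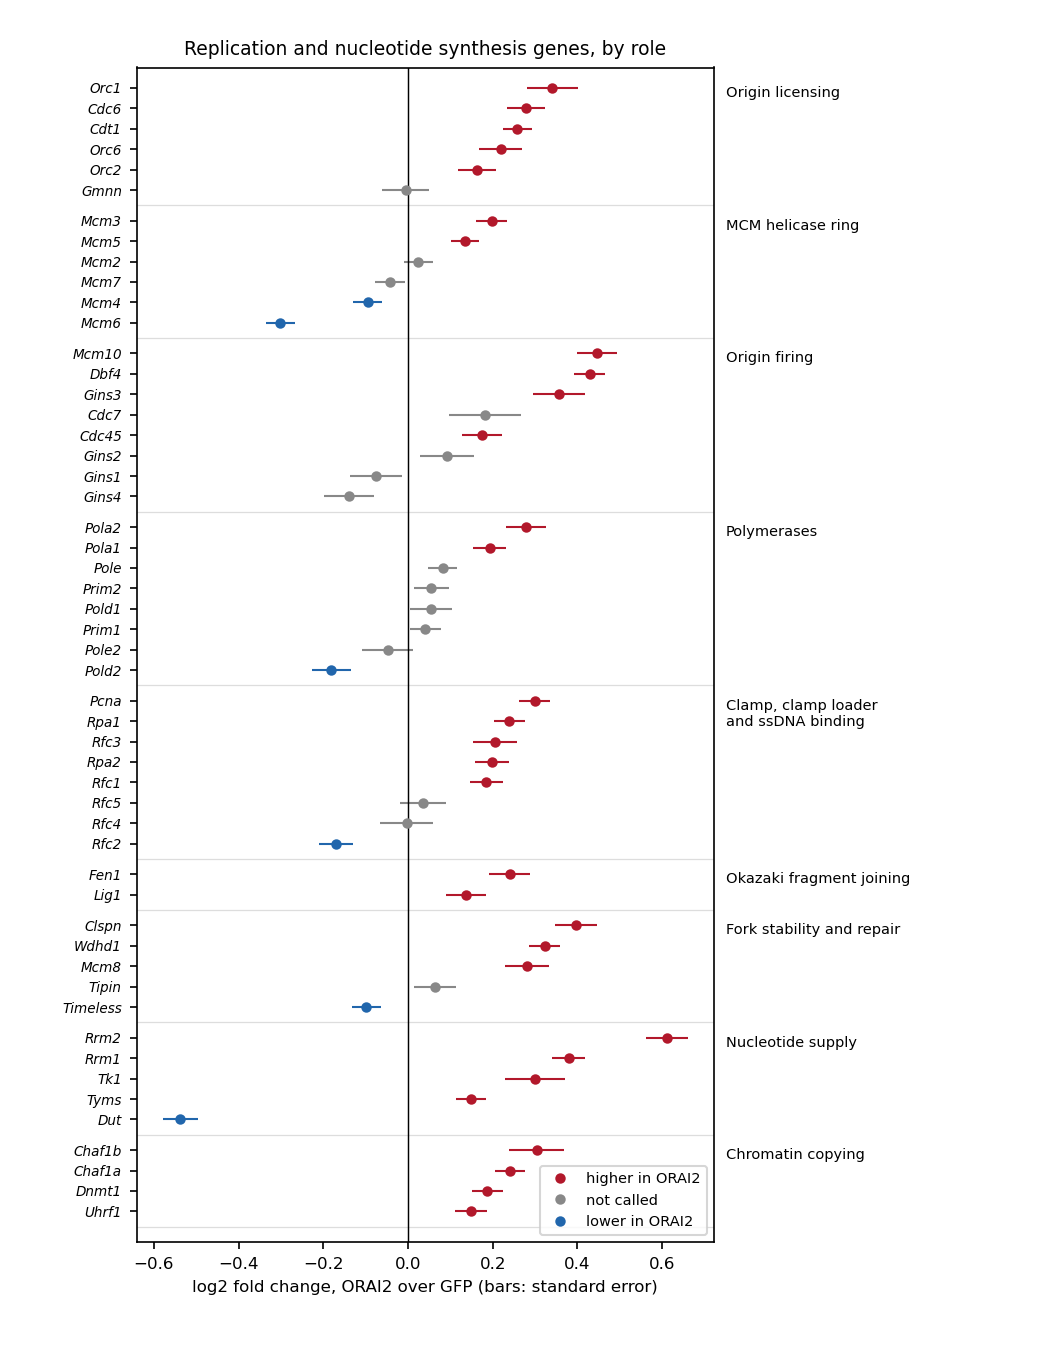
Log2 fold change of each of the 52 replication and nucleotide synthesis genes, ORAI2 over GFP (x axis), with standard errors as bars and genes grouped by role down the page. Red genes rose, blue genes fell and grey genes did not pass the edgeR test; Rrm2 at 0.61 and Dut at -0.54 lie farthest from 0, and both belong to nucleotide supply.

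The licensing genes rose together, with the exception of geminin. Of 6 genes, 5 rose and none fell, and their median log2 fold change was 0.24. Cdt1, which brings the MCM ring to the origin, had 188, 187 and 184 CPM in ORAI2 cells, against 158, 155 and 154 CPM in GFP cells. The 3 ORAI2 libraries lay close together and well above the GFP libraries (1.2-fold higher, log2 fold change 0.26, SE 0.03, edgeR adjusted p = 5.02e-05). Cdc6, the ATPase that works with it, had 59.0, 62.2 and 59.0 CPM in ORAI2 cells, against 49.2, 50 and 49.3 CPM in GFP cells (1.21-fold higher, log2 fold change 0.28, SE 0.04, edgeR adjusted p = 2.68e-04). Orc1, the largest subunit of the origin recognition complex, had 29.0, 28.6 and 29.6 CPM in ORAI2 cells, against 21.8, 23.4 and 23.7 CPM in GFP cells (1.27-fold higher, log2 fold change 0.34, SE 0.06, edgeR adjusted p = 5.97e-04). In none of these genes did the groups overlap. Orc6 and Orc2, further subunits of that complex, also rose. Orc6 was 1.16-fold higher, log2 fold change 0.22, adjusted p = 0.00364, and Orc2 was 1.12-fold higher, log2 fold change 0.16, adjusted p = 0.0108. In the annotation 29.8% of the exonic bases of Orc2 also belong to Nif3l1, so its count is less certain. Gmnn, which encodes the licensing inhibitor geminin, had 32.5, 32.0 and 33.1 CPM in ORAI2 cells, against 34.4, 31.3 and 32.4 CPM in GFP cells, and the groups overlapped (log2 fold change -0.0048, SE 0.06, edgeR adjusted p = 0.954). The ratio of Cdt1 to Gmnn CPM within a library, which also depends on the lengths of both transcripts, was 5.77, 5.84 and 5.55 in ORAI2 cells, against 4.6, 4.95 and 4.76 in GFP cells. All ORAI2 ratios were above all GFP ratios.

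The MCM ring genes went different ways, although the ring holds each of its 6 subunits once. Of the 6, Mcm3 and Mcm5 rose, Mcm4 and Mcm6 fell, and Mcm2 and Mcm7 did not pass the test, so the median log2 fold change was -0.0087. Their summed level was 2093, 2114 and 2084 CPM in ORAI2 cells, against 2112, 2079.9 and 2164 CPM in GFP cells, and the groups overlapped. Mcm6 had 352, 367 and 366 CPM in ORAI2 cells, against 452, 445 and 439 CPM in GFP cells. Every ORAI2 library was below every GFP library (1.23-fold lower, log2 fold change -0.30, SE 0.03, edgeR adjusted p = 1.92e-05). Mcm3 had 434, 432 and 416 CPM in ORAI2 cells, against 373, 360.5 and 385 CPM in GFP cells. Here the order was the opposite, again without overlap (1.15-fold higher, log2 fold change 0.20, SE 0.04, edgeR adjusted p = 9.09e-04). Mcm5 had 257, 262 and 254 CPM in ORAI2 cells, against 234, 234 and 238 CPM in GFP cells (1.10-fold higher, log2 fold change 0.13, SE 0.03, edgeR adjusted p = 0.00569). Mcm4 had 263, 265 and 259 CPM in ORAI2 cells, against 287, 271 and 284 CPM in GFP cells, groups that did not overlap but lay close (1.07-fold lower, log2 fold change -0.10, SE 0.04, edgeR adjusted p = 0.0443). The call on Mcm4 was lost when any library other than GFP library 2 was left out (adjusted p 0.0725 to 0.145) and under DESeq2 (adjusted p = 0.0742). Mcm2 (log2 fold change 0.02, adjusted p = 0.581) and Mcm7 (log2 fold change -0.04, adjusted p = 0.372) did not pass.

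Divided by transcript length, the ring genes could be set against each other. Mcm6 held the largest share of the summed CPM per kilobase (kb) of the 6 genes in GFP cells, and Mcm3 in ORAI2 cells. The share of Mcm6 was 18.8% ± 0.402 in ORAI2 cells, against 22.8% ± 0.556 in GFP cells (SD, n = 3 each). The share of Mcm3 was 21.3% ± 0.434 in ORAI2 cells, against 18.3% ± 0.299 in GFP cells. For Mcm5 it was 11.5% ± 0.108 in ORAI2 cells, against 10.3% ± 0.131 in GFP cells, and for Mcm4 11.0% ± 0.0812 in ORAI2 cells, against 11.6% ± 0.181 in GFP cells. For Mcm2 it was 20.2% ± 0.168 in ORAI2 cells, against 19.6% ± 0.0371 in GFP cells, and for Mcm7 17.1% ± 0.319 in ORAI2 cells, against 17.4% ± 0.307 in GFP cells. The libraries of both groups overlapped in the share of Mcm7 and in no other. These shares are parts of the same sum, so the fall of Mcm6 by itself raises the shares of the other genes. The Mcm2 share separated the groups although the level of Mcm2 did not pass (log2 fold change 0.02, edgeR adjusted p = 0.581).

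**Figure D2:**
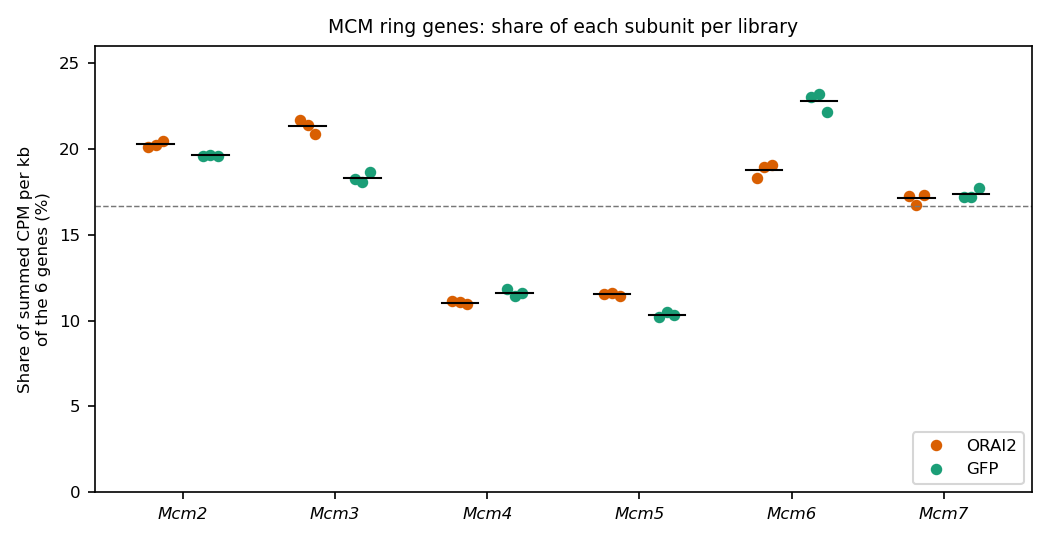
Share of each MCM ring gene in the summed CPM per kb of the 6 genes (y axis, percent), by library, ORAI2 left of GFP; black lines give the mean (n = 3) and the dashed line an equal share. The Mcm3 share is higher and the Mcm6 share lower in all 3 ORAI2 libraries than in any GFP library.

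Promoter sequences were set beside these results because the ring genes are textbook E2F targets that moved in opposite directions. The windows run from 250 bases before to 50 bases after the RefSeq transcription start (GRCm38.p6), and 43 of the 52 genes matched at least 1 of them, with 53 windows in all. Gins1, Gins2, Gins4, Mcm4, Rfc2, Tipin, Prim2, Gmnn and Pole had no matching entry. The E2F words TTTCCCGC, TTTCGCGC, TTTGCCGC and TTTGGCGC were searched on both strands, where matches may overlap each other. At least 1 of them stood in 17 of the 53 windows (32.1%), against 744 of all 32851 windows of that length (2.26%) and 1 of 34 windows of the listed mitosis genes (2.94%). By word, TTTCGCGC stood in 9 windows of the replication genes, TTTGGCGC in 8, TTTCCCGC in 6 and TTTGCCGC in 0. An E2F word stood in 13 of 38 windows of genes that rose, in 1 of 5 windows of genes that fell and in 3 of 10 windows of genes that did not pass. The CCAAT word, to which NF-Y binds, stood on either strand in 30 of the 53 windows (56.6%), in 24 of 34 mitosis gene windows (70.6%) and in 37.4% of all windows. Base composition was not matched in these shares. By gene, 17 of the 43 (39.5%) held an E2F word, against 2.6% of all genes with a window. Many of the 52 genes are known E2F targets, so this higher share goes with the choice of list and is not a result of these cells.

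The windows of Mcm3 (chr1:20820263-20820562, minus strand) and Mcm5 (chr8:75109259-75109558, plus strand), which rose, and of Mcm6 (chr1:128359656-128359955, minus strand), which fell, are shown with that of Rrm2 (chr12:24708004-24708303, plus strand), the gene that rose most. They are written 5′ to 3′ on the strand of the gene, with E2F words and CCAAT, in either orientation, in capitals.
Mcm3: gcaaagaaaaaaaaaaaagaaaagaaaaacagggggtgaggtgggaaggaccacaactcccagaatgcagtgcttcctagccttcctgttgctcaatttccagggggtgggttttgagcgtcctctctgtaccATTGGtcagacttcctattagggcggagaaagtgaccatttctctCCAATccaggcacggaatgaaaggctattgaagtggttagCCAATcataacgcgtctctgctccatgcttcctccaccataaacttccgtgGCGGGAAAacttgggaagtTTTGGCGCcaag
Mcm5: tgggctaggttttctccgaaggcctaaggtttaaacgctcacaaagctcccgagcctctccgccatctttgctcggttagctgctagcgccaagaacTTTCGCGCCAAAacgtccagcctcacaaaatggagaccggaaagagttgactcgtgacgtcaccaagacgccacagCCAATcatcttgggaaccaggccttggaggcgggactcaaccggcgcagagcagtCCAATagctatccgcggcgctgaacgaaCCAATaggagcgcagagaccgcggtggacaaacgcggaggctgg
Mcm6: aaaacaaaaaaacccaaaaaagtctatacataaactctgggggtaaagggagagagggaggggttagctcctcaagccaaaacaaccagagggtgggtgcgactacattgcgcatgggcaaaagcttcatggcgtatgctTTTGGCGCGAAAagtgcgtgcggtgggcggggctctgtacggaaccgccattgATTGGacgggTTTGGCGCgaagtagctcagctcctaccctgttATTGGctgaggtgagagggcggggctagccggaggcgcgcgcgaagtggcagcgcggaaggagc
Rrm2: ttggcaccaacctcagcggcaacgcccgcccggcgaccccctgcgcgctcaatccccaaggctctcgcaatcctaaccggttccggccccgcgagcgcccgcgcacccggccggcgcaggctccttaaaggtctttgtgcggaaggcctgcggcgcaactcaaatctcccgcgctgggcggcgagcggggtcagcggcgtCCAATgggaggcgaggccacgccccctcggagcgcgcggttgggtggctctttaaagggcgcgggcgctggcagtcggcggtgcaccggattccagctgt
Mcm6, which fell, holds 3 E2F words, Mcm3 and Mcm5 hold 2 each, and Rrm2 holds 0. CCAAT occurs 3 times in Mcm3, 3 times in Mcm5, 2 times in Mcm6 and 1 time in Rrm2. A match is a run of letters in this window and says nothing of binding.

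Among the genes that fire licensed origins, 4 of 8 rose and none fell, with a median log2 fold change of 0.18. That is 50% called, beside 42.9% of all tested genes. The largest changes were in the activator Mcm10 and the kinase subunit Dbf4. Mcm10, needed to start unwinding by the assembled helicase, had 95.6, 97.6 and 91.9 CPM in ORAI2 cells, against 70.2, 73.5 and 65.5 CPM in GFP cells (1.36-fold higher, log2 fold change 0.45, SE 0.05, edgeR adjusted p = 9.96e-06). Dbf4, which activates the kinase CDC7 that phosphorylates the MCM ring, had 188, 193 and 184 CPM in ORAI2 cells, against 142, 142 and 136 CPM in GFP cells (1.35-fold higher, log2 fold change 0.43, SE 0.04, edgeR adjusted p = 1.44e-06). In both genes the lowest ORAI2 library was well above the highest GFP library. Its catalytic partner Cdc7, the least abundant of the 52 genes at 7.20 CPM per kb in ORAI2 cells and 6.34 CPM per kb in GFP cells, had 21.8, 22.0 and 23.7 CPM in ORAI2 cells, against 17.3, 20.7 and 21.6 CPM in GFP cells (log2 fold change 0.18, SE 0.09, edgeR adjusted p = 0.103). The Cdc7 groups did not overlap, but among the alternatives on counts the gene passed only without GFP library 3 (log2 fold change 0.25, adjusted p = 0.0455). Without GFP library 1 the log2 fold change of Cdc7 was 0.092, and it did not pass. The ratio of Dbf4 to Cdc7 CPM within a library was 8.64, 8.79 and 7.76 in ORAI2 cells. In GFP cells this ratio was 8.20, 6.90 and 6.32, and the groups overlapped.

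Of the CMG helicase partners, Cdc45 rose and the GINS genes were uneven. Cdc45 had 77.5, 85.9 and 78.0 CPM in ORAI2 cells, against 70.7, 73.5 and 69.7 CPM in GFP cells (1.13-fold higher, log2 fold change 0.17, SE 0.05, edgeR adjusted p = 0.0106). Gins3 had 37.8, 37.6 and 35.6 CPM in ORAI2 cells, against 26.8, 29.1 and 30.9 CPM in GFP cells (1.28-fold higher, log2 fold change 0.36, SE 0.06, edgeR adjusted p = 5.19e-04). It was the GINS gene that passed the test, and no ORAI2 library overlapped a GFP library. Gins1 (log2 fold change -0.08, adjusted p = 0.346), Gins2 (log2 fold change 0.09, adjusted p = 0.264) and Gins4 (log2 fold change -0.14, adjusted p = 0.0782) did not pass. Gins4 had 46.5, 41.3 and 43.4 CPM in ORAI2 cells, against 50.5, 49.1 and 44.9 CPM in GFP cells, and it passed as lower without ORAI2 library 1 (adjusted p = 0.0424) and without GFP library 3 (adjusted p = 0.0234). The exonic bases of Gins2 overlap those of Gse1 by 67.3%, so its count is uncertain. The share of Gins3 in the summed CPM per kb of the 4 genes was 15.7% ± 0.0738 in ORAI2 cells, against 12.2% ± 1.30 in GFP cells (SD, n = 3 each). Over the 11 genes of the CMG helicase, 4 rose, 2 fell and 5 did not pass, beside 20.8% higher and 22.1% lower among all tested genes.

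Of the 8 polymerase genes, 2 rose, 1 fell and 5 did not pass, a share of 37.5% called beside 42.9% of all tested genes, and their median log2 fold change was 0.05. Both polymerase subunits of the alpha-primase complex, which lays down the primers, rose. Pola1, the catalytic subunit, had 207, 206 and 201 CPM in ORAI2 cells, against 187, 179 and 172 CPM in GFP cells (1.14-fold higher, log2 fold change 0.19, SE 0.04, edgeR adjusted p = 0.00144). Pola2, the accessory subunit, had 90.0, 89.3 and 83.2 CPM in ORAI2 cells, against 74.7, 73.4 and 68.3 CPM in GFP cells (1.21-fold higher, log2 fold change 0.28, SE 0.05, edgeR adjusted p = 4.63e-04). Neither overlapped between groups. The primase genes of the same complex, Prim1 (log2 fold change 0.04, adjusted p = 0.405) and Prim2 (log2 fold change 0.06, adjusted p = 0.317), did not pass. Of polymerase delta, which copies mainly the lagging strand, the accessory subunit gene Pold2 had 54.5, 58.7 and 54.4 CPM in ORAI2 cells, against 61.8, 64.7 and 63.5 CPM in GFP cells (1.13-fold lower, log2 fold change -0.18, SE 0.05, edgeR adjusted p = 0.00714), with all ORAI2 libraries below all GFP libraries, and the catalytic Pold1 did not pass (log2 fold change 0.05, adjusted p = 0.399). Among these 8 genes, neither gene of polymerase epsilon, the leading-strand enzyme, passed. Pole had a log2 fold change of 0.08 (edgeR adjusted p = 0.0794) and Pole2 of -0.05 (adjusted p = 0.553). The polymerase epsilon genes Pole3 and Pole4 lie outside these 8. Pole3 rose (1.16-fold higher, log2 fold change 0.21, edgeR adjusted p = 0.0152). Pole4 did not pass, although the groups did not overlap (log2 fold change 0.12, edgeR adjusted p = 0.0649).

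The clamp gene and both listed genes for coating single strands rose, while the clamp loader was mixed. There were 5 rises and 1 fall among these 8 genes, whose median log2 fold change was 0.19. Pcna, the sliding clamp that tethers polymerases to DNA, had 395, 411 and 392 CPM in ORAI2 cells, against 328, 332 and 314 CPM in GFP cells. The ORAI2 libraries all lay above the GFP libraries (1.23-fold higher, log2 fold change 0.30, SE 0.04, edgeR adjusted p = 3.31e-05). Per length, Pcna was the most abundant of the 52 genes, at 263 CPM per kb in ORAI2 cells and 214 CPM per kb in GFP cells. Rpa1, the large subunit of the single-strand binding protein RPA, had 218, 221 and 208 CPM in ORAI2 cells, against 186, 182 and 181 CPM in GFP cells (1.18-fold higher, log2 fold change 0.24, SE 0.04, edgeR adjusted p = 1.89e-04), and Rpa2, its middle subunit, was 1.15-fold higher, log2 fold change 0.20, adjusted p = 0.00163. The remaining RPA subunit gene, Rpa3, lies outside the 52. It had 10.6, 13.3 and 12.3 CPM in ORAI2 cells, against 14.2, 13.4 and 14.4 CPM in GFP cells. Rpa3 did not pass, although the groups did not overlap (log2 fold change -0.21, edgeR adjusted p = 0.0902). Of the loader genes that open the clamp, Rfc1 (1.14-fold higher, log2 fold change 0.18, adjusted p = 0.00209) and Rfc3 (1.15-fold higher, log2 fold change 0.20, adjusted p = 0.00641) rose. Rfc2, another loader subunit, had 63.5, 64.1 and 64.5 CPM in ORAI2 cells, against 73.2, 71.8 and 71.1 CPM in GFP cells, without overlap (1.12-fold lower, log2 fold change -0.17, SE 0.04, edgeR adjusted p = 0.00378). Rfc4 (log2 fold change -0.003, adjusted p = 0.976) and Rfc5 (log2 fold change 0.04, adjusted p = 0.628) did not pass. The share of Rfc2 in the summed CPM per kb of the 5 loader genes was 9.04% ± 0.234 in ORAI2 cells, against 10.8% ± 0.408 in GFP cells.

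Both genes for finishing Okazaki fragments, the short pieces of the lagging strand, rose. Fen1, the nuclease that trims their 5′ flaps, had 47.5, 49.4 and 50.1 CPM in ORAI2 cells, against 40.0, 43.1 and 41.3 CPM in GFP cells (1.18-fold higher, log2 fold change 0.24, SE 0.05, edgeR adjusted p = 0.00168). Its exonic bases overlap those of Tmem258 and Gm10143 by 84.2%, and with the use of strand not given in the sources used here its count is uncertain. Lig1, the ligase that seals the nicks, had 136, 138 and 124 CPM in ORAI2 cells, against 121, 126 and 115 CPM in GFP cells, and the groups overlapped (1.10-fold higher, log2 fold change 0.14, SE 0.05, edgeR adjusted p = 0.0349). Lig1 lost its call without ORAI2 library 1, ORAI2 library 2, GFP library 1 or GFP library 3 (adjusted p 0.0753 to 0.119).

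Fork stability genes had the median log2 fold change 0.28, with 3 of 5 higher. Clspn, whose product claspin links the fork to the ATR checkpoint, had 72.5, 78.1 and 72.4 CPM in ORAI2 cells, against 53.7, 56.6 and 59.2 CPM in GFP cells (1.32-fold higher, log2 fold change 0.40, SE 0.05, edgeR adjusted p = 4.14e-05). Wdhd1, the AND-1 protein that connects the helicase to polymerase alpha, had 134, 136 and 130.2 CPM in ORAI2 cells, against 104, 109 and 108 CPM in GFP cells (1.25-fold higher, log2 fold change 0.32, SE 0.04, edgeR adjusted p = 1.82e-05). Mcm8, an MCM relative outside the ring that works in repair at forks, had 39.8, 41.8 and 41.5 CPM in ORAI2 cells, against 33.9, 32.3 and 35.2 CPM in GFP cells (1.21-fold higher, log2 fold change 0.28, SE 0.05, edgeR adjusted p = 9.15e-04). None of these overlapped between groups. Of the fork protection partners, Timeless had 189, 186 and 195 CPM in ORAI2 cells, against 206, 201 and 204 CPM in GFP cells (1.07-fold lower, log2 fold change -0.10, SE 0.03, edgeR adjusted p = 0.0349), and Tipin did not pass (log2 fold change 0.06, adjusted p = 0.323). The Timeless call was lost under DESeq2 (adjusted p = 0.0815), with correction in GC bins (log2 fold change -0.07, adjusted p = 0.137) and when any library other than ORAI2 library 3 was left out (adjusted p 0.0586 to 0.12). The ratio of Tipin to Timeless CPM within a library was 0.409, 0.413 and 0.374 in ORAI2 cells. In GFP cells this ratio was 0.375, 0.356 and 0.337, and the groups overlapped.

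Nucleotide supply held the largest rise and the largest fall of the 52 genes. Of its 5 genes 4 rose and 1 fell, with a median log2 fold change of 0.30. Rrm2, the small subunit of ribonucleotide reductase that is limiting in S phase, had 192, 191 and 171 CPM in ORAI2 cells, against 119, 126 and 117 CPM in GFP cells. The lowest ORAI2 library, library 3, was still far above the highest GFP library (1.53-fold higher, log2 fold change 0.61, SE 0.05, edgeR adjusted p = 9.19e-07). Rrm1, the large subunit of the same enzyme, had 272, 265 and 255 CPM in ORAI2 cells, against 208, 207 and 194 CPM in GFP cells, again without overlap (1.30-fold higher, log2 fold change 0.38, SE 0.04, edgeR adjusted p = 9.03e-06). The share of Rrm2 in the summed CPM per kb of both subunits was 56.0% ± 0.936 in ORAI2 cells, against 52.1% ± 0.793 in GFP cells (SD, n = 3 each).

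Thymidine nucleotide genes moved apart. Tyms, thymidylate synthase, which makes dTMP from dUMP, had 122, 119 and 122 CPM in ORAI2 cells, against 108, 111 and 108 CPM in GFP cells (1.11-fold higher, log2 fold change 0.15, SE 0.03, edgeR adjusted p = 0.00398). Tk1, the thymidine kinase of the salvage route, had 39.4, 39.1 and 34.8 CPM in ORAI2 cells, against 33.0, 31.3 and 27.9 CPM in GFP cells (1.23-fold higher, log2 fold change 0.30, SE 0.07, edgeR adjusted p = 0.00438). Dut, dUTPase, which hydrolyses dUTP to dUMP and so keeps uracil out of DNA, had 111, 119 and 109 CPM in ORAI2 cells, against 167, 165 and 159.7 CPM in GFP cells. Every ORAI2 library was far below every GFP library (1.45-fold lower, log2 fold change -0.54, SE 0.04, edgeR adjusted p = 6.36e-07). The ratio of Tyms to Dut CPM within a library, which also depends on transcript lengths, was 1.10, 0.999 and 1.12 in ORAI2 cells, against 0.650, 0.669 and 0.675 in GFP cells. The ratios did not overlap, as each sets a gene that rose over a gene that fell.

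**Figure D3:**
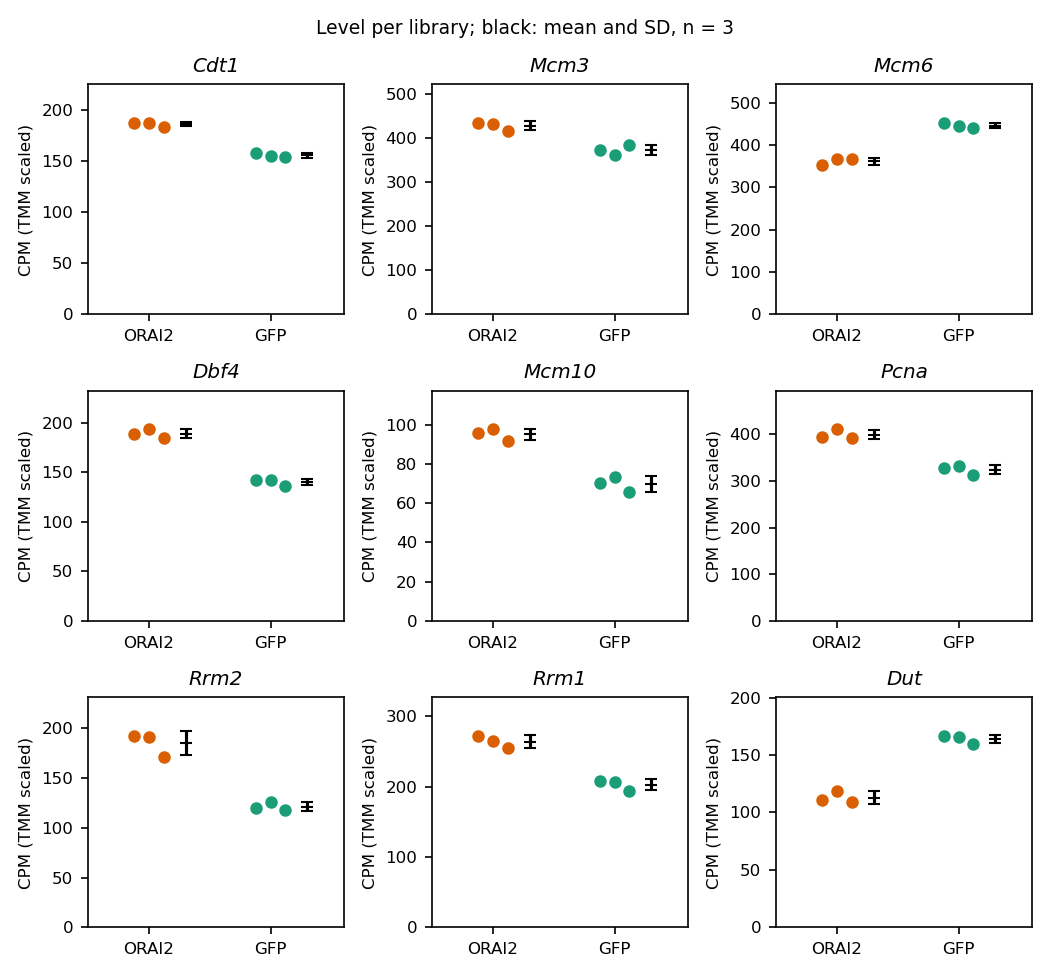
Level of 9 replication and nucleotide genes in each library (y axis, CPM after TMM scaling, from 0), ORAI2 left of GFP, with the mean and SD (n = 3) in black. Mcm6 and Dut are lower in all 3 ORAI2 libraries, and the other 7 genes are higher in all 3.

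The genes that copy chromatin behind the fork all rose, 4 of 4, with a median log2 fold change of 0.21. Chaf1a, the large subunit of the histone chaperone CAF-1, had 164, 155 and 162 CPM in ORAI2 cells, against 136, 136 and 135 CPM in GFP cells (1.18-fold higher, log2 fold change 0.24, SE 0.04, edgeR adjusted p = 1.39e-04). Its exonic bases overlap those of Ubxn6 by 52.5%, which leaves the count uncertain. Chaf1b, the middle CAF-1 subunit, had 95.5, 89.6 and 78.9 CPM in ORAI2 cells, against 71.4, 75.5 and 67.0 CPM in GFP cells (1.23-fold higher, log2 fold change 0.30, SE 0.07, edgeR adjusted p = 0.00234). Both CAF-1 genes were higher in every ORAI2 library. Dnmt1, the maintenance DNA methyltransferase, had 274, 261 and 259 CPM in ORAI2 cells, against 239, 229.9 and 229 CPM in GFP cells (1.14-fold higher, log2 fold change 0.19, SE 0.04, edgeR adjusted p = 0.00123), and Uhrf1, which recruits it to newly copied DNA, had 211, 201 and 197 CPM in ORAI2 cells, against 188, 179.7 and 183 CPM in GFP cells (1.11-fold higher, log2 fold change 0.15, SE 0.04, edgeR adjusted p = 0.00658).

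Licensing, fork and nucleotide supply genes all had a positive median. Licensing and ring genes together (12) had a median log2 fold change of 0.15, with 7 higher and 2 lower, although the ring genes alone had -0.0087. The fork genes together (31: firing, polymerases, clamp, Okazaki fragments, fork stability) had 0.17, with 16 higher and 3 lower. The 5 nucleotide supply genes had 0.30, with values between -0.54 and 0.61. The summed level of licensing and ring genes averaged 2597 CPM in ORAI2 cells and 2547 CPM in GFP cells, and the libraries overlapped. For the fork genes the sums averaged 3048 CPM in ORAI2 cells and 2705 CPM in GFP cells, without overlap. The differences between these gene groups were not tested. Within complexes, both listed ribonucleotide reductase genes, both listed CAF-1 genes and the 3 listed origin recognition genes rose, while the MCM ring and the clamp loader each held genes that rose and genes that fell. Outside the 52, the origin recognition gene Orc3 rose (log2 fold change 0.14, edgeR adjusted p = 0.0254). Orc4 (log2 fold change 0.04, adjusted p = 0.484) and Orc5 (log2 fold change 0.0009, adjusted p = 0.992) did not pass. Nor did Rrm2b, another reductase subunit gene (log2 fold change -0.06, adjusted p = 0.46). Across the 52 genes, the log2 fold change had a Pearson correlation of 0.147 with transcript length, -0.159 with GC content and -0.166 with the log2 level per kb. These are descriptions over genes of the same 6 libraries.

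Other replication factors, 29 genes listed by role, held 17 that rose, 3 that fell and 9 that did not pass, with a median log2 fold change of 0.16. Of this list 69.0% were called, beside 42.9% of all tested genes. Rif1, which times origin firing, averaged 321 ± 7.94 CPM in ORAI2 cells and 269 ± 5.64 CPM in GFP cells (1.19-fold higher, log2 fold change 0.26, adjusted p = 8.85e-05; SD, n = 3 each). Top1, the topoisomerase that relaxes DNA ahead of the fork, averaged 162 ± 3.84 CPM in ORAI2 cells and 133 ± 5.98 CPM in GFP cells (1.22-fold higher, log2 fold change 0.29, adjusted p = 8.97e-05). Chtf8, part of an alternative clamp loader, averaged 6.37 ± 0.601 CPM in ORAI2 cells and 2.82 ± 0.430 CPM in GFP cells (2.25-fold higher, log2 fold change 1.17, adjusted p = 4.48e-05). The annotation holds 2 gene models named Chtf8, and 95.7% of their exonic bases are shared with each other or with Has3, so its count is uncertain. Among the genes that fell, Pold4, the smallest subunit of polymerase delta, averaged 8.49 ± 0.374 CPM in ORAI2 cells and 13.9 ± 2.26 CPM in GFP cells (1.63-fold lower, log2 fold change -0.71, adjusted p = 3.48e-04). Rnaseh2a, the catalytic subunit of RNase H2, which removes ribonucleotides from DNA, averaged 52.8 ± 1.30 CPM in ORAI2 cells and 60.8 ± 2.56 CPM in GFP cells (1.15-fold lower, log2 fold change -0.20, adjusted p = 0.00382). Rnaseh2c of the same enzyme averaged 10.9 ± 1.71 CPM in ORAI2 cells and 14.3 ± 1.62 CPM in GFP cells (1.31-fold lower, log2 fold change -0.39, adjusted p = 0.0164), and lost its call without ORAI2 library 1, ORAI2 library 3 or GFP library 1 (adjusted p 0.0598 to 0.0792).

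The wider nucleotide metabolism list, 27 genes, held 16 that rose, 5 that fell and 6 that did not pass, with a median log2 fold change of 0.14. Of these, 77.8% were called, beside 42.9% of all tested genes. Shmt1, the cytosolic serine hydroxymethyltransferase of the folate cycle, averaged 107 ± 3.31 CPM in ORAI2 cells and 75.5 ± 2.88 CPM in GFP cells (1.41-fold higher, log2 fold change 0.50, adjusted p = 1.52e-06; SD, n = 3 each). Atic, the enzyme of the last steps of purine synthesis, averaged 288 ± 7.05 CPM in ORAI2 cells and 216 ± 5.66 CPM in GFP cells (1.33-fold higher, log2 fold change 0.41, adjusted p = 2.05e-06). Nme1, a nucleoside diphosphate kinase, averaged 135 ± 4.05 CPM in ORAI2 cells and 93.2 ± 1.98 CPM in GFP cells (1.45-fold higher, log2 fold change 0.53, adjusted p = 3.60e-07), but it has a close paralog, Nme2, and shares a readthrough gene model with it, so its count is uncertain. Samhd1, a hydrolase that breaks down deoxynucleotide triphosphates, averaged 229.8 ± 7.02 CPM in ORAI2 cells and 383 ± 6.04 CPM in GFP cells (1.67-fold lower, log2 fold change -0.74, adjusted p = 1.77e-08). Both CTP synthase genes fell as well: Ctps2 averaged 81.3 ± 3.41 CPM in ORAI2 cells and 115 ± 0.677 CPM in GFP cells (1.42-fold lower, log2 fold change -0.50, adjusted p = 8.96e-07), and Ctps averaged 298 ± 8.86 CPM in ORAI2 cells and 384 ± 2.97 CPM in GFP cells (1.29-fold lower, log2 fold change -0.37, adjusted p = 4.33e-06). Paics (1.19-fold lower, log2 fold change -0.25, adjusted p = 2.31e-04) and Slc29a1 (1.12-fold lower, log2 fold change -0.16, adjusted p = 0.00547) were the remaining genes that fell.

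**Figure D4:**
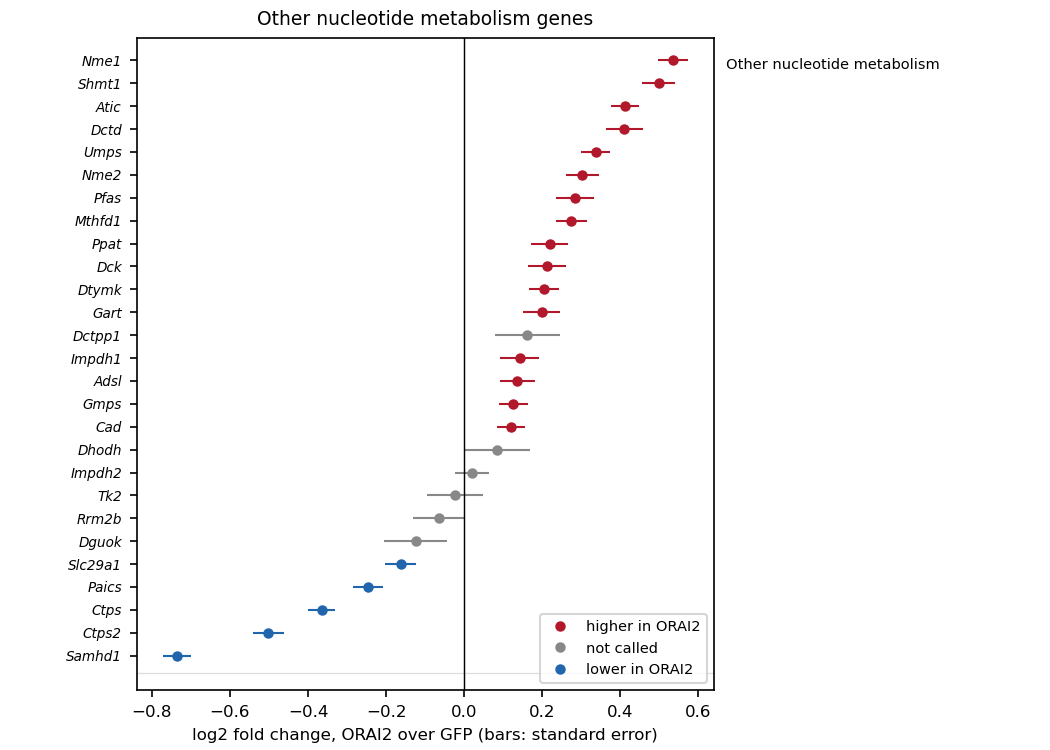
Log2 fold change, ORAI2 over GFP (x axis, bars: standard error), of the 27 other nucleotide metabolism genes. Nme1 at 0.53 and Samhd1 at -0.74 are the extremes; red genes rose, blue genes fell and grey genes did not pass.

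The genes that govern entry into S phase moved in both directions, 13 of 20 higher, 4 lower and 3 without a call, with a median log2 fold change of 0.19. That is 85% called, beside 42.9% of all tested genes. Ccne2, cyclin E2, averaged 76.1 ± 5.59 CPM in ORAI2 cells and 36.7 ± 1.77 CPM in GFP cells (2.07-fold higher, log2 fold change 1.05, adjusted p = 5.83e-08; SD, n = 3 each). E2f7, a repressor E2F that is itself an E2F target, averaged 127 ± 4.46 CPM in ORAI2 cells and 77.4 ± 2.60 CPM in GFP cells (1.64-fold higher, log2 fold change 0.71, adjusted p = 7.10e-08), and the phosphatase gene Cdc25a averaged 77.2 ± 1.80 CPM in ORAI2 cells and 56.4 ± 3.40 CPM in GFP cells (1.37-fold higher, log2 fold change 0.45, adjusted p = 1.20e-05). On the lower side, the CDK inhibitor gene Cdkn1b (p27) averaged 44.4 ± 1.05 CPM in ORAI2 cells and 57.9 ± 3.53 CPM in GFP cells (1.31-fold lower, log2 fold change -0.38, adjusted p = 8.39e-05). Cyclin D3, Ccnd3, averaged 85.0 ± 2.75 CPM in ORAI2 cells and 105 ± 2.81 CPM in GFP cells (1.24-fold lower, log2 fold change -0.30, adjusted p = 6.03e-05), and Rbl1, the pocket protein p107, averaged 138 ± 5.32 CPM in ORAI2 cells and 159.9 ± 1.88 CPM in GFP cells (1.16-fold lower, log2 fold change -0.22, adjusted p = 5.36e-04). Its relative Rbl2, p130, was the remaining gene that fell (1.11-fold lower, log2 fold change -0.15, adjusted p = 0.0293), a call lost under DESeq2 (adjusted p = 0.111) and without any library other than ORAI2 library 1 (adjusted p 0.0531 to 0.134). Mitosis genes, a comparison list of 36, had 26 higher (72.2%), 1 lower and 9 without a call, and a median log2 fold change of 0.26. Among all tested genes 20.8% were higher and 22.1% lower. Cdc20, which activates the anaphase-promoting complex, averaged 116 ± 5.39 CPM in ORAI2 cells and 85.9 ± 3.24 CPM in GFP cells (1.35-fold higher, log2 fold change 0.43, adjusted p = 8.08e-06). Espl1, separase, averaged 94.8 ± 2.00 CPM in ORAI2 cells and 72.6 ± 3.64 CPM in GFP cells (1.31-fold higher, log2 fold change 0.38, adjusted p = 1.95e-05), and Prc1, which bundles spindle midzone microtubules, averaged 178 ± 7.03 CPM in ORAI2 cells and 139.6 ± 4.87 CPM in GFP cells (1.28-fold higher, log2 fold change 0.35, adjusted p = 2.22e-05). Pttg1, securin, averaged 27.9 ± 4.84 CPM in ORAI2 cells and 39.3 ± 1.74 CPM in GFP cells (1.41-fold lower, log2 fold change -0.49, adjusted p = 0.00104). The difference between replication and mitosis genes was not tested.

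**Figure D5:**
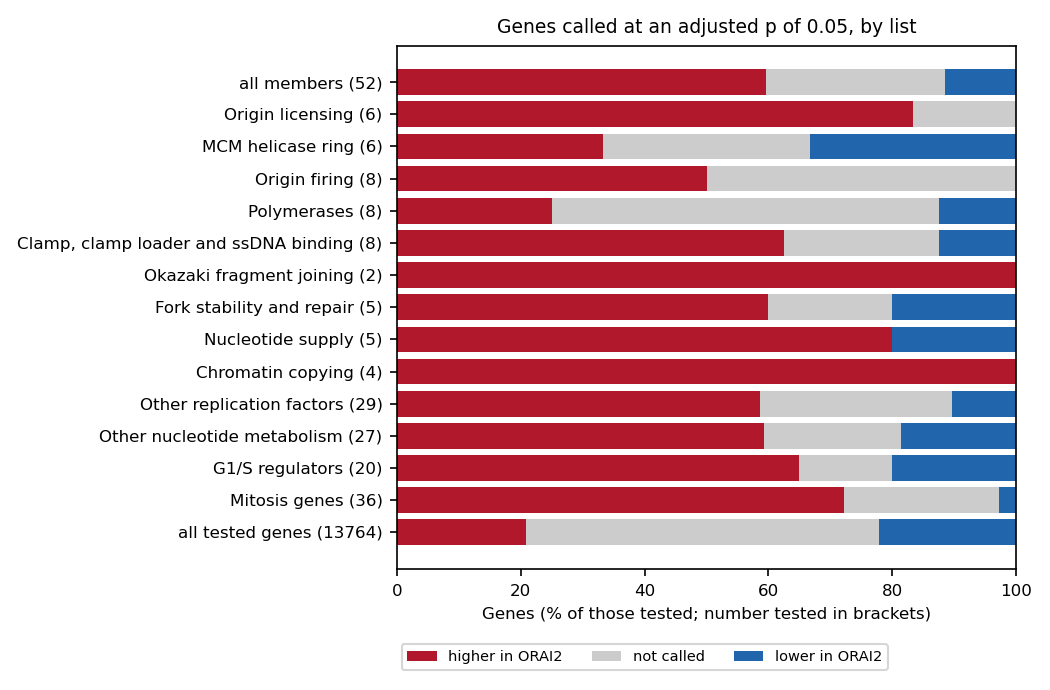
Share of tested genes that rose (red), did not pass (grey) or fell (blue) in ORAI2 against GFP cells, in percent, for the 52 genes, their role groups, the other lists and all tested genes; the number tested is in brackets. Higher genes make up 59.6% of the 52 and 20.8% of all tested genes.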

How the data were processed

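RNA was measured by sequencing in 6 libraries, 3 of ORAI2 and 3 of GFP cells. The labels' protocols describe poly(A) selection on oligo(dT) beads and random priming. HISAT2 2.0.4 and Salmon 1.4.0 are listed with the build GRCm39 in the submitters' processing notes. What each tool did, which annotation served and whether strand was used is not stated. Per the file headers, the deposited values are counts and TPM for every gene and library. The count columns hold whole numbers, which may be reads or rounded estimates. Gene identifiers were matched to symbols for 25631 of 26532 genes.

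From the counts, edgeR 4.0.16 (R 4.3.3) was run with TMM scaling, a filter at a minimum count of 10 and the quasi-likelihood test on all 6 libraries, with Benjamini-Hochberg adjustment over the 13764 genes left and a threshold of 0.05. The steps were also run on simulated data with independent replicates, in which far fewer genes changed than were called here. That run cannot show whether the spread between these libraries is technical. Levels are CPM after TMM scaling, summed levels are CPM without it, and levels per kb use GENCODE transcript lengths. The alternatives used DESeq2 1.42.0, limma 3.58.1 and the deposited TPM. The members and lists were chosen with earlier results of these data known. The genes named were Orai2, members that fell, up to 4 called members per role group with the smallest p, lone uncalled members, and up to 3 genes per direction in each other list. The remaining members, and the remaining genes that fell in the other lists, were named in addition. Within a group, library pairs differed by a chi-square per gene of 2.54 to 4.50, so none was a copy. Some genes of the wider lists are not reported here.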

Additional observations from a re-analysis of the deposited data

How the results depend on the processing

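Of the 37 replication genes that passed the test, 34 kept call and direction in all 14 alternatives run on the counts (other scalings and filters, DESeq2, limma-voom, GC bins, a replicate block, each library left out); Lig1, Mcm4 and Timeless did not. The replicate block gave 31 genes higher and 7 lower, Gins4 being added at an adjusted p of 0.0461, and 3048 higher and 3198 lower over all genes; same-numbered libraries deviated together with correlations of 0.136, 0.0735 and 0.126, so the numbers do not establish pairs, although every library correlated best with its own number. Leaving out 1 library gave 2354 to 2734 higher and 2568 to 2927 lower genes in all, 30 to 31 higher and 4 to 5 lower replication genes, and 1 to 2 of the Okazaki fragment genes. GC content was known for 88.8% of tested genes, and correction in 10 GC bins added Pole (adjusted p = 0.0348) and lost Timeless (adjusted p = 0.137), with 32 replication genes higher and 5 lower.

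The deposited TPM gave other values, with a median log2 fold change of 0.05 over the 52 genes (0.13 with columns 1 and 2), against 0.18 on counts. With a pseudocount of 1, 11 genes of all were higher and 9 lower; with 0.1, 11 and 10; with no low-value filter, 12 and 12. In all 3 of these, 0 replication genes were higher, 0 were lower and every role group had 0 calls. With the TPM columns numbered 1 and 2, chosen after seeing the data, 826 genes were higher and 1275 lower; 11 replication genes were higher and 3 lower, with 3 licensing, 1 MCM ring, 2 origin firing, 1 polymerase, 2 clamp and loader, 0 Okazaki fragment, 2 fork stability, 3 nucleotide supply and 0 chromatin genes called. Counts and TPM of the same column name were correlated across 8915 genes, after centring on each gene, at 0.561, 0.665 and 0.125 in the ORAI2 columns, against 0.379, 0.410 and 0.344 in the GFP columns; the cause was not tested.

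Some log2 fold changes turned sign. With TPM over all columns these included Mcm5, Lig1 and Uhrf1, which had been called higher on counts. Rfc4 turned to 0.00083 with library totals alone, 0.0011 with limma-voom, 0.063 with TPM (pseudocount 1, with or without the filter), 0.064 (pseudocount 0.1) and 0.057 (columns 1 and 2), and Gmnn to 0.048 with columns 1 and 2. With TPM over all columns, Mcm2 turned to -0.046, Mcm5 to -0.0195, Cdc7 to -0.0055 (-0.0050 at pseudocount 0.1), Pold1 to -0.13, Lig1 to -0.038 (-0.039) and Uhrf1 to -0.010, while the fibroblast marker Dcn turned to 0.068. With TPM columns 1 and 2, Mcm5 (0.10), Lig1 (0.085), Uhrf1 (0.11) and Dcn (-0.19) kept the sign they had on counts. None of these passed there (limma adjusted p 0.107 to 0.447). Leaving out 1 library moved Gmnn between -0.0367 and 0.032, Rfc4 between -0.0615 and 0.071 and Rfc5 between -0.0058 and 0.088.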

Other observations

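DNA repair genes, a list of 29 drawn up after the data were seen, were compared as neighbours of the replication genes. Of the 29, 12 rose (41.4%), 1 fell (3.45%) and 16 did not pass edgeR's test, with a median log2 fold change of 0.14. Over all tested genes, 20.8% were higher and 22.1% lower, with a median of -0.0018. In both directions together, 44.8% of the list was called, near the 42.9% of all tested genes. Brca1, a core gene of homologous recombination, averaged 84.8 ± 0.767 CPM in ORAI2 cells and 70.1 ± 1.16 CPM in GFP cells (SD, n = 3 each; 1.21-fold higher, log2 fold change 0.27, SE 0.04, edgeR adjusted p = 8.94e-05). Brip1, the helicase that binds BRCA1, averaged 49.1 ± 1.5 CPM in ORAI2 cells and 38.5 ± 2.20 CPM in GFP cells (1.28-fold higher, log2 fold change 0.35, adjusted p = 2.04e-04). In both genes all 3 ORAI2 libraries were above all 3 GFP libraries. Atm, the kinase that responds to double-strand breaks, was the gene of the list that fell and averaged 175 ± 5.34 CPM in ORAI2 cells and 198 ± 4.06 CPM in GFP cells (1.14-fold lower, log2 fold change -0.18, adjusted p = 0.00142). The list was not tested against the replication genes.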
